A study of Mus musculus with 289 samples.

Results

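The genes described here were the cell cycle inhibitors and p53 response genes Cdkn1a, Cdkn1b, Cdkn1c, Cdkn2b, Trp53, Mdm2, Ccng1, Phlda3 and Rb1. They were taken by symbol, without use of their values, from a single-cell table of mouse tail skin, and all 9 were found among its 15019 genes. Their levels and detection were followed across 4 plates of sorted cells, between PRT4165 and vehicle, between cells with and without Mki67, and across clusters of cells.

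The p53 protein is held low by the ubiquitin ligase Mdm2 and, once stabilised by DNA damage or other stress, switches on a set of genes that includes Cdkn1a, Ccng1, Phlda3 and Mdm2 itself. Cdkn1a, Cdkn1b and Cdkn1c encode inhibitors of the CIP/KIP family, which bind cyclin and kinase complexes and hold back entry into S phase, whereas Cdkn2b encodes an INK4 inhibitor that keeps D-type cyclins from activating their kinases. The product of Rb1 binds E2F factors and is released from them when these kinases phosphorylate it, and in the epidermis the loss of cell division that accompanies differentiation is a setting in which CIP/KIP inhibitors are well known.

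Every mouse carried Lrig1-EGFP-ires-CreERT2 and Rosa26-fl/STOP/fl-tdTomato on a mixed CBA C57BL/6 background and was given hydroxytamoxifen once on the tail skin, so that tomato marked cells that had expressed Lrig1 at labelling and their descendants. The skin then received PRT4165, an inhibitor of the Polycomb ubiquitin ligases Ring1A and Ring1B, or vehicle, and tomato-positive epidermal cells labelled as keratinocytes of population L1 at t0 were sorted singly for Smart-seq2, a full-length cDNA method. The labels gave 2 plates for each treatment, numbered as replicates 1 and 2 of a batch. No plate mixed treatments, and within a replicate number the effect of a plate and that of its treatment cannot be told apart. The letters AC in the treatment label were taken to mean vehicle. That label also holds an unexplained code, which was 1 for all vehicle cells and another for all PRT4165 cells, so that, should the codes stand for separate experiments, these and the treatment cannot be told apart on either replicate. The labels did not tie cells to animals, so p-values over plates measure the spread between these plates. After cells with over 50% mitochondrial counts had been left out, 274 of 289 cells remained, 70 and 55 in vehicle replicates 1 and 2 and 72 and 77 in PRT4165 replicates 1 and 2.

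The plates held between 25761756 and 41592716 estimated counts, and the median cell of vehicle replicate 1 had 141985, against 429383 to 538754 on the other plates. Detection shares were therefore taken in the 246 cells that could be thinned to 50000 non-mitochondrial counts each. All 10 keratinocyte markers were present, with a summed level of 15744 to 19799 CPM (counts scaled to 1000000 per plate) on the plates. Of 10 immune markers 2 were measured, at 0.078 to 1.11 CPM in sum, and the other 8, Cd3e, Cd52, Cd207, Lyz2 and Tyrobp among them, were not analysed here. Of the other lineages, 5 of 8 melanocyte markers (6.19 to 36.1 CPM in sum), 5 of 6 fibroblast markers (7.28 to 84.3 CPM) and 2 of 5 endothelial markers (210 to 609 CPM) were measured, and all of these had counts. Tyrp1, Mlana, Sox10, Col3a1, Cdh5, Kdr and Emcn were not analysed here, so the absence of these lineages was not shown. Immediate early genes, which also rise when tissue is dissociated, summed to 1238, 1148, 1735 and 1033 CPM in vehicle replicates 1 and 2 and PRT4165 replicates 1 and 2.

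The p53 protein binds a pair of 10-base arms with a short gap between them, and promoter windows of 300 bases around the start of a gene (RefSeq, GRCm38.p6) were searched for it. Windows were found for 7 of the 9 genes, not for Cdkn1c or Rb1. For Cdkn1a and Ccng1, 1 window each is shown, with the arms in capitals. These were the only windows among these genes with a full element at no or 1 mismatch. The Cdkn1a window shown lies at chr17:29090729-29091028 on the plus strand and its arms, 12 bases apart, match the consensus at every position. Only the pair with the fewest mismatches is in capitals. The second of these arms also forms an adjoining pair, at 1 mismatch, with the 10 bases that follow it. Which pair p53 binds was not tested. Another Cdkn1a window, at chr17:29093519-29093818, held 0 arms, and its best full element had 5 mismatches. The Ccng1 window lies at chr11:40755237-40755536 on the minus strand with adjoining arms and 1 mismatch.
Cdkn1a promoter: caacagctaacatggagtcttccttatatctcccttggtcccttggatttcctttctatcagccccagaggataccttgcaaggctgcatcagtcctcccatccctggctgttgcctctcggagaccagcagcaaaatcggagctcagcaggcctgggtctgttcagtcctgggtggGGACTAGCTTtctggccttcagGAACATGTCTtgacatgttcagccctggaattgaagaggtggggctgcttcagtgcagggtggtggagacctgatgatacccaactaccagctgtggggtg
Ccng1 promoter: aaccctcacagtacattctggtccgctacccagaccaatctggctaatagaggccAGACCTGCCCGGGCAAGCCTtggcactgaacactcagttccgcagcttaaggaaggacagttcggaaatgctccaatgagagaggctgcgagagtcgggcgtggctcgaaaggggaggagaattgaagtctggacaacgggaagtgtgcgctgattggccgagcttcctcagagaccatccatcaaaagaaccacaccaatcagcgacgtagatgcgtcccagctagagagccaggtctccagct
Among 32851 mouse promoter windows of this length, searched on both strands with a gap of at most 13 bases, 0.0731% held the full element with no mismatch, 1.09% held it with at most 1 mismatch and 8.36% held at least 1 arm. The windows of Mdm2 and Trp53 held 1 arm each. A match of letters is a description of the window and was not tested as a binding site in these cells.

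Cdkn1a was the member found in most cells and at the highest level for its length, and Cdkn1c was close to absent. Before thinning, Cdkn1a had a count in 60.2% of the 274 cells, Cdkn1b in 43.1%, Ccng1 in 40.1%, Trp53 in 35.4%, Rb1 in 26.6%, Mdm2 in 26.3%, Phlda3 in 20.1%, Cdkn2b in 19.3% and Cdkn1c in 1.82% (5 cells). Per kilobase of the longest coding transcript, the level of the plate sums averaged 46.2 ± 12.6 CPM per kb for Cdkn1a and 24.2 ± 19.0 for Ccng1 (SD, n = 4 plates). The other levels per length ran from 10.997 ± 3.91 for Cdkn2b, 8.41 ± 1.73 for Trp53 and 5.80 ± 2.92 for Mdm2 to 5.38 ± 2.28 for Cdkn1b, 4.92 ± 2.59 for Rb1, 4.68 ± 2.56 for Phlda3 and 0.218 ± 0.180 for Cdkn1c. Every plate was higher for Cdkn1a, at 30.4 CPM per kb or more, than for any other member except Ccng1, which spanned 8.82 to 51.8. The neighbours from Cdkn2b down to Phlda3 overlapped between plates, and the highest plate of Cdkn1c, at 0.422, lay below the lowest plate of each of the other 8.

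**Figure D1:**
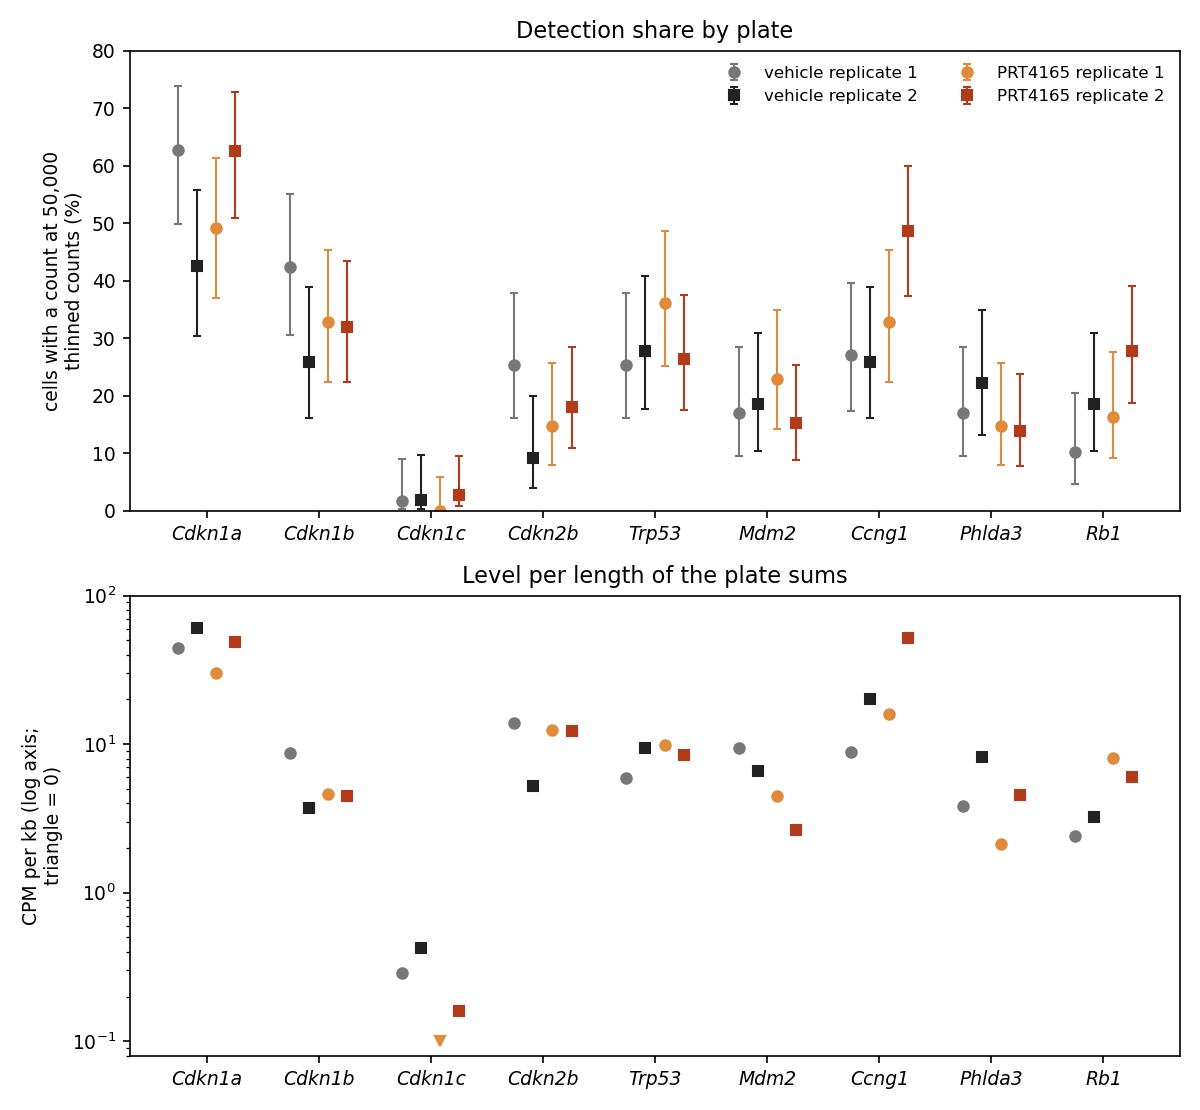
Detection share (upper panel, percent of thinned cells with a count, bars are 95% Wilson intervals for counting error) and level per length (lower panel, CPM per kb of the plate sum, log axis) of the 9 genes on the 4 plates. Ccng1 has both PRT4165 plates above both vehicle plates in detection, and Rb1 has them above in level, while most other members overlap.

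The comparison of PRT4165 with vehicle asked whether loss of Polycomb ubiquitin ligase activity moved these genes in undamaged skin. No member passed the test. By edgeR's quasi-likelihood test on plate sums, 0 of the 9 members and 0 of 12791 genes tested (0.0%) had an adjusted p under 0.05, with 630 genes and 0 members under 0.05 before adjustment. DESeq2 called 104 of these genes higher and 70 lower on the same sums, again with no member among them. The median log2 fold change was -0.41 over the 9 members and -0.02 over all genes. The spread between plates of a treatment was wide, with a biological coefficient of variation of 76.9%. The members' standard errors ran from 0.55 to 1.88 on the log2 scale, so changes of this size could not be told from none. They are not a limit of detection, since genes with larger changes also went without a call. The lowest edgeR adjusted p of all genes was 0.862. Fewer cells with a transcript and less transcript per cell give the same plate sum, and the detection shares beside each level describe the first.

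Among the CIP/KIP inhibitors, Cdkn1a stood at 92.7 and 126.6 CPM in vehicle replicates 1 and 2 and at 63.1 and 102 CPM in PRT4165 replicates 1 and 2. The treatments overlapped, and the log2 fold change was -0.41 (SE 0.55, edgeR adjusted p = 0.997). Its detection share in thinned cells was 62.7% and 42.6% in vehicle and 49.2% and 62.5% in PRT4165, so that the highest and lowest plates were both vehicle. Cdkn1a overlapped by 273 exonic bases with the antisense gene AC167363.2, and the libraries do not mark strand, so reads of that stretch cannot be assigned to either gene.

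Cdkn1b, whose protein binds cyclin and kinase complexes in resting cells, was at 39.8 and 16.9 CPM in vehicle and at 20.9 and 20.3 CPM in PRT4165. The PRT4165 plates were close to each other and lay between the vehicle plates (log2 fold change -0.46, SE 0.74, edgeR adjusted p = 0.997). Its detection share was 42.4% and 25.9% in vehicle and 32.8% and 31.9% in PRT4165. For Cdkn1c, the imprinted member of the family, the counts came from 1, 1, 0 and 3 cells on the plates in the same order, at 0.550, 0.802, 0 and 0.304 CPM. The 0 of 72 cells in PRT4165 replicate 1 allows a share of up to 4.17%, a limit for counting error only, and 625 exonic bases of Cdkn1c are shared with the antisense gene Gm44732.

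Cdkn2b, the INK4 inhibitor, had 19.4 and 7.29 CPM in vehicle and 17.3 and 17.1 CPM in PRT4165. Both PRT4165 plates lay within the range of the vehicle plates, and the log2 fold change was 0.36 (SE 0.82, edgeR adjusted p = 0.997). Its detection share was 25.4% and 9.26% in vehicle and 14.8% and 18.1% in PRT4165, again overlapping. Rb1, the pocket protein downstream of these inhibitors, had 11.2 and 15.001 CPM in vehicle and 37.5 and 27.9 CPM in PRT4165. Both PRT4165 plates were above both vehicle plates, and Rb1 had the largest positive log2 fold change of the members at 1.32 (SE 0.71, unadjusted p = 0.0993, edgeR adjusted p = 0.997). The order of levels was not matched in detection, where Rb1 had a count in 10.2% and 18.5% of thinned vehicle cells and 16.4% and 27.8% of thinned PRT4165 cells. Rb1 shares 896 exonic bases with Rcbtb2 and Lpar6 on the other strand.

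Trp53 itself, which encodes p53, had 11.1 and 17.5 CPM in vehicle and 18.3 and 15.8 CPM in PRT4165 (log2 fold change 0.26, SE 0.76, edgeR adjusted p = 0.997). It was detected in 25.4% and 27.8% of thinned vehicle cells and in 36.1% and 26.4% of thinned PRT4165 cells. In both measures the treatments overlapped.

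Of the p53 response genes, Mdm2 did not pass the test. It stood at 29.7 and 20.7 CPM in vehicle and 14.1 and 8.33 CPM in PRT4165 (log2 fold change -1.17, SE 0.76, unadjusted p = 0.162, edgeR adjusted p = 0.997). Both PRT4165 plates were below both vehicle plates, but 1 cell gave 79.8% of the Mdm2 counts of vehicle replicate 1, and without the highest cell of each plate the log2 ratio was -0.33. Its detection share was 17.0% and 18.5% in vehicle and 23.0% and 15.3% in PRT4165, and so overlapped.

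Ccng1, which encodes cyclin G1, had 30.99 and 70.7 CPM in vehicle and 56.3 and 182 CPM in PRT4165, and the treatments overlapped in level (log2 fold change 1.23, SE 0.73, unadjusted p = 0.1303, edgeR adjusted p = 0.997). In detection both PRT4165 plates were above both vehicle plates, with 27.1% and 25.9% of thinned vehicle cells and 32.8% and 48.6% of thinned PRT4165 cells, a difference of 14.2 percentage points. Of the clusters described below, E, J and K had Ccng1 in over 50% of thinned cells. Cluster E held 2 and 3 vehicle cells and 6 and 15 PRT4165 cells, and K held 1 and 1 vehicle cells and 6 and 5 PRT4165 cells. Cluster J, with the highest share (64.3%), held 4 and 3 vehicle cells and 7 and 3 PRT4165 cells, and so overlapped. The part of these cell numbers in the difference was not tested. Phlda3, whose product restrains Akt, had 5.54 and 11.8 CPM in vehicle and 3.06 and 6.48 CPM in PRT4165 (log2 fold change -0.86, SE 0.99, edgeR adjusted p = 0.997). It was detected in 16.9% and 22.2% of thinned vehicle cells and 14.8% and 13.9% of thinned PRT4165 cells, with both PRT4165 plates lower.

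Counted over the members, 1 of 9 (Rb1) had both PRT4165 plates above both vehicle plates in level and 2 (Mdm2 and Cdkn1c) had them below, against 16.4% and 15.6% of all genes. In detection, 1 member (Ccng1) was above and 1 (Phlda3) below, against 22.1% and 12.9% of all genes. For both Ccng1 and Phlda3 the exact two-sided permutation test over plates gave p = 0.333, the smallest that 2 plates against 2 allow.

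**Figure D2:**
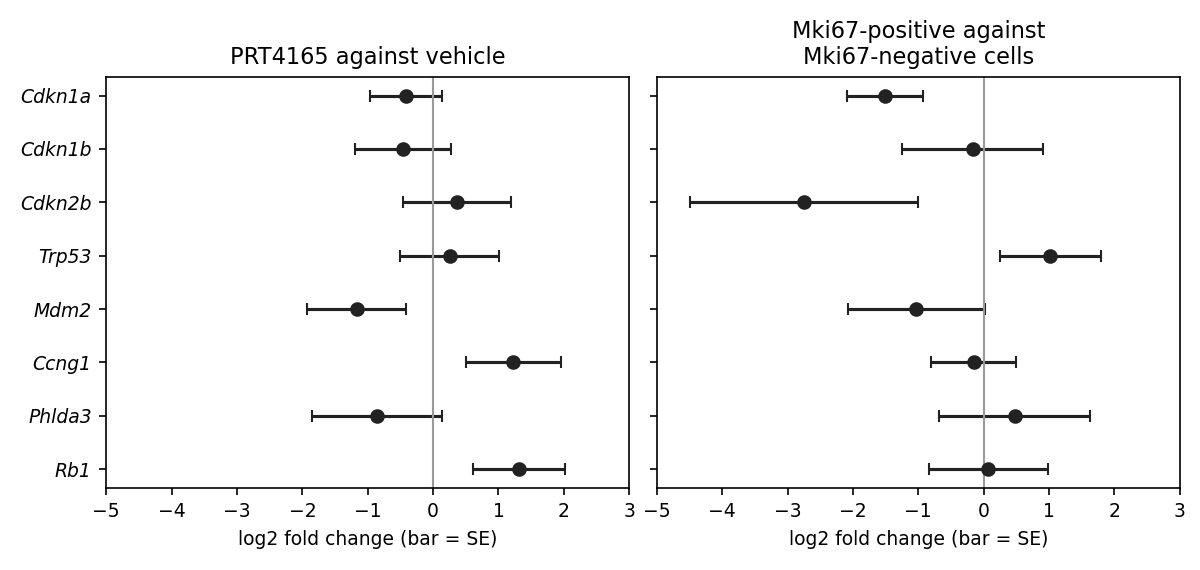
Log2 fold change of 8 members (points, bars are SE) for PRT4165 against vehicle (left) and for Mki67-positive against Mki67-negative cells (right). None passed an adjusted p of 0.05, and Cdkn1a in the right panel, at -1.50, is the only one with an unadjusted p under 0.05.

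The other genes of these pathways were also without a call in PRT4165. Among 36 tested p53 target genes of a hand-written list, 0 were called and 2 had an unadjusted p under 0.05, with a median log2 fold change of -0.28. The ubiquitin ligase gene Trim32 had 2.62 and 10.8 CPM in vehicle and 62.96 and 23.5 CPM in PRT4165 (log2 fold change 2.69, edgeR adjusted p = 0.923). Rrm2b, a p53-inducible subunit of ribonucleotide reductase, had 18.3 and 13.9 CPM in vehicle and 3.06 and 2.89 CPM in PRT4165 (log2 fold change -2.44, edgeR adjusted p = 0.935). In both genes the treatments did not overlap, in opposite directions. Next by unadjusted p in the same list were the death receptor gene Eda2r, with a log2 fold change of 3.10, and Ei24, with -1.33 (edgeR adjusted p = 0.997 for each).

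Of 20 regulators of p53, 0 were called and the median was -0.23. Sirt1, a deacetylase of p53, had 60.3 and 29.0 CPM in vehicle and 10.8 and 5.42 CPM in PRT4165 (log2 fold change -2.46, edgeR adjusted p = 0.923), and Prkdc, which encodes a DNA damage kinase, had a log2 fold change of -1.57. Trp53bp1 and Rchy1 had 2.16 and 1.05, and all but Sirt1 had an edgeR adjusted p of 0.997. Of 29 cyclin, kinase, inhibitor, pocket protein and E2F genes, 0 were called, 19 had a positive log2 fold change and the median was 0.27. The S phase cyclin gene Ccne2 had 1.27 and 5.90 CPM in vehicle and 17.6 and 17.2 CPM in PRT4165 (log2 fold change 2.28), while Rbl2 had 1.93, E2f5 -0.9994 and Skp2 -1.30 (edgeR adjusted p = 0.997 for each).

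Of 25 genes of S, G2 and M phase, 23 had a positive log2 fold change in PRT4165, with a median of 1.16 against -0.02 for all genes, but 0 were called. Rrm2, another subunit of ribonucleotide reductase, had 3.42 and 4.84 CPM in vehicle and 48.1 and 17.1 CPM in PRT4165 (log2 fold change 2.98, edgeR adjusted p = 0.869). Bub1 had 3.88, and Kif11 and Bub1b had -0.96 and -0.55 (edgeR adjusted p = 0.985, 0.997 and 0.997). The share of Mki67-positive cells, at 8.57% and 18.2% in vehicle and 22.2% and 14.3% in PRT4165, overlapped between treatments. A stricter class, cells with at least 10 counts in at least 5 of these 25 genes, did not overlap. It held 4 of 70 and 5 of 55 cells in vehicle and 13 of 72 and 12 of 77 in PRT4165. These cells were not thinned, and the difference was not tested. Among 15 immediate early genes 0 were called and the median was 0.04, with Nr4a1 at a log2 fold change of 3.39, Atf3 at 1.42, Dusp1 at -0.57 and Ier3 at -0.59 (edgeR adjusted p = 0.937 for Nr4a1 and 0.997 for the others).

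The next comparison asked whether cells with Mki67, a marker of cycling cells, lacked the inhibitors. A cell with at least 1 count of Mki67 was taken as positive, which gave 6 of 70 and 10 of 55 cells for vehicle replicates 1 and 2 and 16 of 72 and 11 of 77 for PRT4165 replicates 1 and 2, 43 in all, against 231 negative cells. Median non-mitochondrial counts were 334345 in positive and 300817 in negative cells. Within plates, positive cells were deeper only on vehicle replicate 2 (569878 against 357653). They were shallower on vehicle replicate 1 (92532 against 124777) and on PRT4165 replicates 1 (298690 against 344160) and 2 (359440 against 384336). Inhibitors were not absent from Mki67-positive cells: at least 1 of the 4 CDK inhibitors had a count in 33 of 43 (76.7%, 95% Wilson interval 62.3 to 86.8%), and in 75.8% of the 231 negative cells (69.8 to 80.8%). In thinned cells these shares were 62.5% and 68.9%. At least 1 of the 4 genes Mdm2, Ccng1, Phlda3 and Cdkn1a had a count in 41 of 43 positive (95.3%) and 84.4% of negative cells, and in 85.0% and 79.1% after thinning.

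Cycling genes separated the classes. With plate as a block, edgeR called 33 of 11005 genes (0.3%), 22 higher in positive cells, Mki67 itself among them, and 11 lower, but 0 of the 8 members tested, and DESeq2 called 251 of these genes higher and 602 lower, also without a member. Of the 25 genes of S, G2 and M phase, 9 were called, all higher, with a median log2 fold change of 7.34 against -0.37 for all genes, the zero from which the members below should be read. The kinesin gene Cenpe, the ubiquitin conjugating enzyme gene Ube2c, the spindle gene Prc1, Hmmr and Cenpf had the smallest p, with log2 fold changes of 10.84, 7.43, 7.34, 10.02 and 9.94 (edgeR adjusted p = 0.00790, 0.0148, 0.0148, 0.0148 and 0.0176). The calls depended on single plates. Without vehicle replicate 1 edgeR called 0 genes (672 with an unadjusted p under 0.05), without PRT4165 replicate 1 it called 2 higher and 3 lower, without vehicle replicate 2 it called 12 higher and 19 lower, and without PRT4165 replicate 2 it called 24 higher and 5 lower.

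Cdkn1a had a lower level in Mki67-positive cells on every plate without passing the test. In negative and positive cells it had 98.7 and 60.7 CPM in vehicle replicate 1 and 161.8 and 73.6 CPM in vehicle replicate 2. In PRT4165 replicates 1 and 2 it had 86.6 and 15.9 CPM and 119.955 and 35.8 CPM. The level was lower in the positive class on 4 of 4 plates, as for 13.5% of all genes, and the log2 fold change of -1.50 (SE 0.58) had an unadjusted p of 0.0280 but did not pass adjustment (edgeR adjusted p = 0.504). Detection differed less than level. Cdkn1a had a count in 23 of 43 positive cells (53.5%) and in 61.5% of negative cells, and in thinned cells the share was lower by 2.96, 3.18, 17.5 and 20.1 percentage points on the 4 plates, as for 4.19% of all genes (mean difference -10.9 ± 9.14, SD, n = 4; exact two-sided permutation test p = 0.125, the smallest that 4 plates allow).

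Cdkn2b also tended to be missing from positive cells, in the PRT4165 plates. It had a count in 2 of 6 and 2 of 10 positive cells in vehicle but in 1 of 16 and 1 of 11 in PRT4165, against 15 of 64, 7 of 45, 9 of 56 and 16 of 66 negative cells. Its level in negative and positive cells was 19.4 and 35.3 CPM, then 9.04 and 5.08 CPM in vehicle, and 24.8 and 0.735 CPM, then 21.1 and 0.197 CPM in PRT4165. The log2 fold change was -2.75 (SE 1.75, edgeR adjusted p = 0.728), and the PRT4165 plates together differed from the vehicle plates by -5.77 in this log2 ratio, an interaction with an unadjusted p of 0.0327 and an edgeR adjusted p of 1. The positive-cell sums of PRT4165 held 6 counts and 1 count. Cdkn1c had 0 of 43 positive cells, which allows a share of up to 6.98%, and 5 of 231 negative cells, and it was too low for the fit.

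Cdkn1b was found in 25 of 43 positive (58.1%) and 93 of 231 negative cells (40.3%). After thinning it was higher in the positive class on 3 of 4 plates, by 20.1 ± 22.7 percentage points on average (exact permutation p = 0.250), while its level differed by a log2 fold change of -0.17 (SE 1.08, edgeR adjusted p = 0.987). Rb1 was found in 18 of 43 and 55 of 231 cells, with a log2 fold change of 0.07 (SE 0.91, edgeR adjusted p = 0.993). Neither gene was marked by absence from Mki67-positive cells.

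Among the p53 genes, Phlda3 and Ccng1 were detected more often in Mki67-positive cells on every plate after thinning. Phlda3 had a count in 17 of 43 positive (39.5%) and 38 of 231 negative cells (16.5%), and in thinned cells it was higher by 25.2, 21.8, 8.66 and 15.8 percentage points on the 4 plates (mean 17.9 ± 7.26; exact two-sided permutation test p = 0.125). Ccng1 had a count in 25 of 43 (58.1%) and 85 of 231 cells (36.8%), and in thinned cells was higher by 14.1, 5, 13.1 and 39.2 percentage points (mean 17.8 ± 14.8, exact p = 0.125). Before thinning, vehicle replicate 2 went the other way for Ccng1, with 3 of 10 positive and 16 of 45 negative cells. A higher share on all 4 plates was seen for 13.2% of all genes. In level neither passed the test, with log2 fold changes of 0.48 (SE 1.16) for Phlda3 and -0.15 (SE 0.66) for Ccng1 (edgeR adjusted p = 0.970 and 0.979). Both lay above the median of -0.37 for all genes, by less than their SE.

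Trp53 had a higher level in positive cells on 4 of 4 plates, at 18.1, 31.7, 36.7 and 30.9 CPM against 11.2, 15.1, 15.6 and 14.6 CPM in negative cells, as for 5.68% of all genes. The log2 fold change was 1.02 (SE 0.77, edgeR adjusted p = 0.790), and in thinned cells the share was higher on 3 of 4 plates (mean 11.4 ± 19.8 percentage points, exact permutation p = 0.375). In positive cells, 1 cell gave 95.5% and 72.95% of the Trp53 counts on vehicle replicates 1 and 2. On PRT4165 replicate 2, 1 cell gave 97.5%, and on PRT4165 replicate 1 the highest cell gave 23.0%. The higher level on all plates but PRT4165 replicate 1 thus rested on 1 cell a plate. Mdm2 had a log2 fold change of -1.03 (SE 1.04, edgeR adjusted p = 0.872) and nearly the same detection in both classes, with a mean difference of 1.65 ± 2.53 percentage points over the 4 plates.

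**Figure D3:**
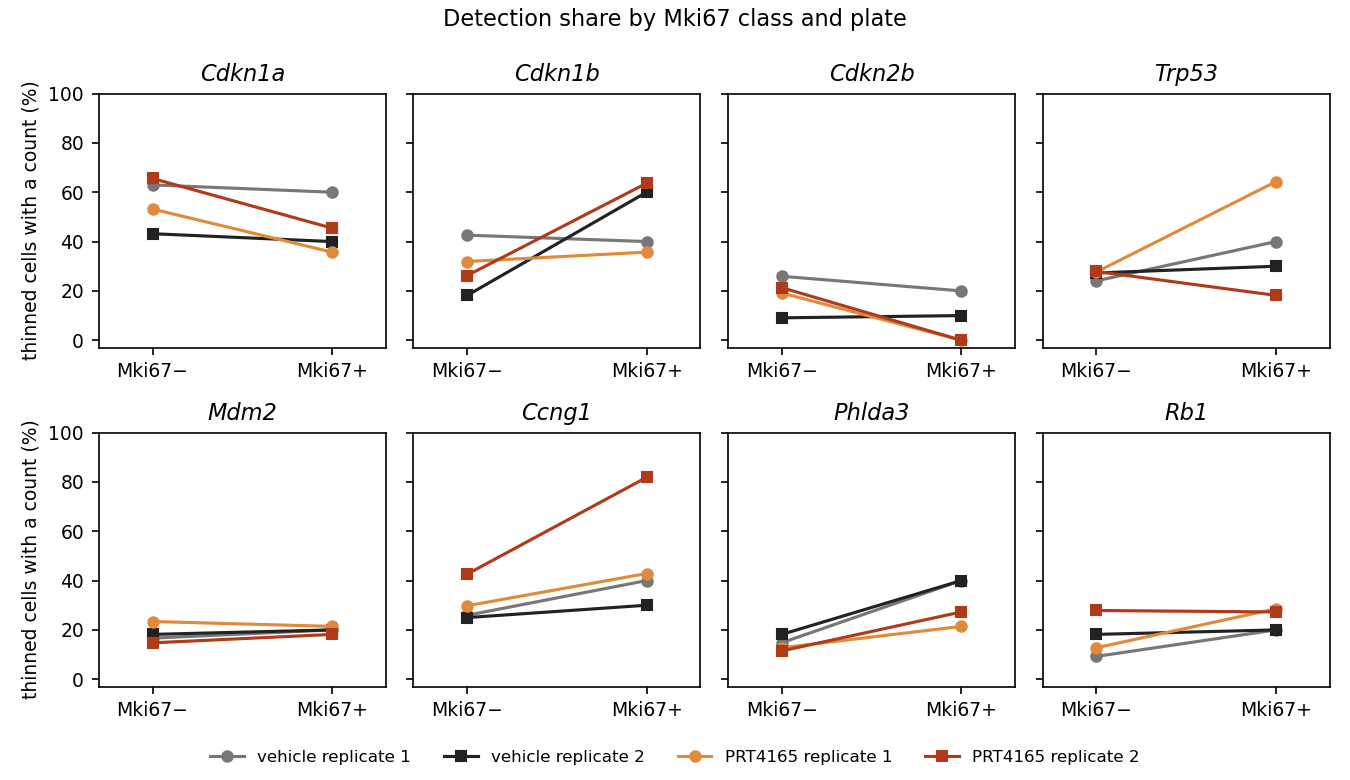
Share of thinned cells with a count (percent) in Mki67-negative and Mki67-positive cells, 1 panel for each of 8 members and 1 line for each plate. The positive class is lower on all 4 plates for Cdkn1a and higher on all 4 for Ccng1 and Phlda3, and the positive class held 5 to 14 thinned cells a plate.

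In the wider lists, 0 of 34 tested p53 targets were called between the Mki67 classes, with a median of -0.34. Perp, a p53 target that encodes a desmosome protein, had 7140, 2827, 5809 and 2673 CPM in negative cells and 2119, 2337, 953 and 2144 CPM in positive cells (log2 fold change -1.23, edgeR adjusted p = 0.465). It was lower in the positive class on all 4 plates. Trim32 had -6.12, and Ckap2 and Psrc1, which act on the mitotic spindle, had 5.60 and 4.14 (edgeR adjusted p = 0.393, 0.347 and 0.518). Among the regulators of p53, 0 of 20 were called, with Trp63, the p53 family member of basal keratinocytes, at 0.66, Chek2 at 1.71, Cop1 at -3.21 and Trp53bp1 at -2.59 (edgeR adjusted p = 0.769, 0.854, 0.445 and 0.505). Of 28 genes of the kinase and Rb axis, 0 were called. The phosphatase gene Cdkn3 came nearest, with at most 7.94 CPM in negative and at least 116 CPM in positive cells of each plate (log2 fold change 9.68, edgeR adjusted p = 0.0528), followed by Cks1b at 1.95, E2f5 at -3.60 and E2f3 at -5.01 (edgeR adjusted p = 0.360, 0.711 and 0.720). The log2 fold change was negative for all 15 immediate early genes, median -0.99, with 0 called and Fos at -1.35 and Egr1 at -1.55 (edgeR adjusted p = 0.524 and 0.594).

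Which cells held the members was read from 11 clusters of the 274 cells, lettered by size. The clusters were built from variable genes without these 9, but in the same cells, so the values are given without a test. In clusters A, D and F at least 5 of 10 suprabasal markers were raised. Cluster A (38 cells, led by Krt1 and Krt10) was differentiated-like, and D (27 cells, led by Defb6, Cst6 and Krt79) and F (25 cells, led by Sprr1a, Cst6 and Klk7) were upper-follicle-like by their markers. E (26 cells, led by Scd1) was sebaceous-like and J (17 cells, led by Mki67 and Birc5) was cycling-like. The others, B (Ifitm3, Adh7), C (Krt6a, Aspn), G (Adh7, Ifitm3), H (Crip1, Sparc), I (Crip1, Krt15) and K (Gm973, Slc7a2), are named by their leading genes only.

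Cdkn1a was concentrated in the suprabasal and upper follicle cells. It had a count in 34 of 38 cells of A, 26 of 27 of D and 24 of 25 of F, and after thinning in 78.9%, 92.3% and 88%. Elsewhere the thinned share was 63.6% in K, 51.9% in C and 50% in E, and 18.8 to 30.8% in B, G, H, I and J. The summed level was 113 CPM in A, 200 in D, 184.007 in F and 147.4 in C, which is outside the suprabasal group. It was 79.7 CPM in E and 46.9 in K, and 4.78 to 16.3 CPM in B, G, H, I and J. Clusters A, D and F together held 90 cells and 70.05% of all Cdkn1a counts.

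The concentration was seen on every plate. In A, D and F together, Cdkn1a was detected in 91.7% and 88.9% of the thinned cells of vehicle and 81.8% and 80% of PRT4165, against 42.9%, 19.4%, 30.8% and 53.2% of all other cells. Of all genes, 6.91% were likewise detected more often in A, D and F on all 4 plates and 15.1% less often, a background against which the counts of plates below should be read. Its level there was 161.5 ± 69.2 CPM, against 48.1 ± 22.3 CPM in the other cells (SD, n = 4 plates). Those clusters held 3 of the 43 Mki67-positive cells, and the other clusters held 40.

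Cdkn2b was found mainly in a few clusters. Of its 53 positive cells, 34 lay in A, D and F, the clusters grouped by markers, and 19 in the others. Cluster C was added for its own share of Cdkn2b. With it, A, C, D and F held 118 cells and 47 of the positive cells, and the other clusters held 6. After thinning it was detected in 47.4% of A, 37.0% of C, 26.9% of D and 20% of F. No cell of B, E or G had a count, which allows shares of up to 9.68%, 11.5% and 12.5% for counting error alone.

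**Figure D4:**
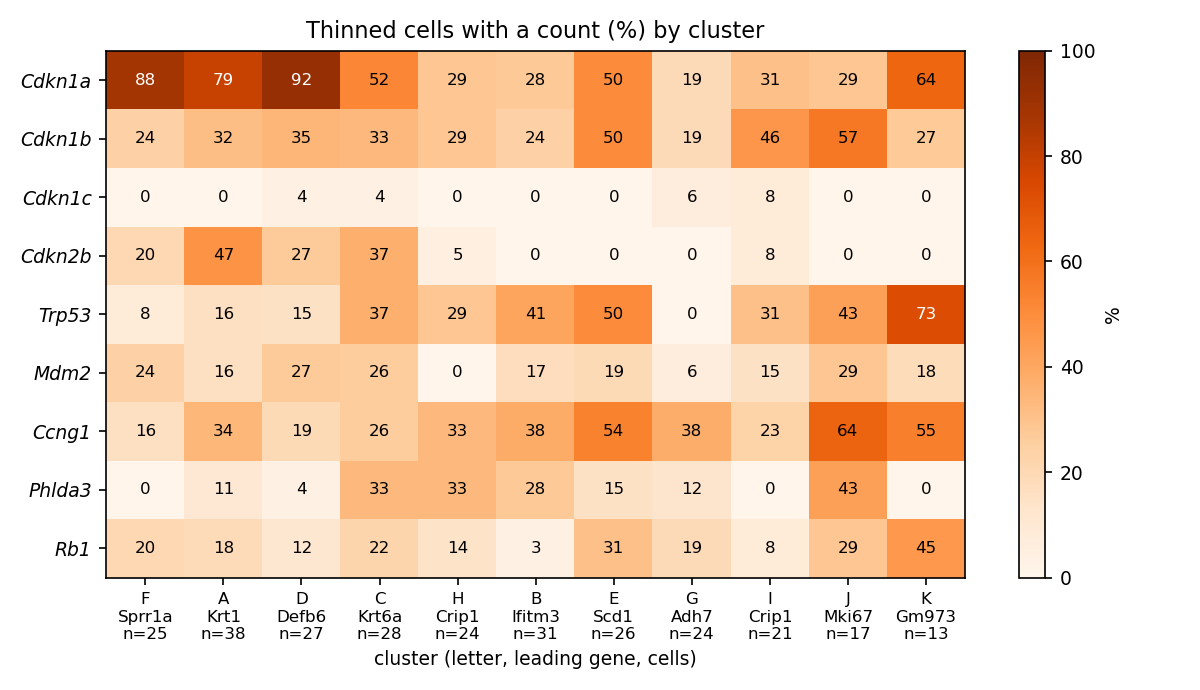
Percent of thinned cells with a count for the 9 genes (rows) in the 11 clusters (columns, ordered by the number of suprabasal markers raised, with the leading gene and the number of cells before thinning). Cdkn1a is highest in F, A and D, Cdkn2b is found mainly in A, C, D and F, and Trp53 and Phlda3 are low in F, A and D but also in G (Trp53) and in I and K (Phlda3).

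Trp53 and Phlda3 were detected less often in A, D and F. Trp53 was detected in 13.6 ± 3.73% of thinned cells of A, D and F and in 37.5 ± 9.24% of the others, and was lower in the former on 4 of 4 plates. By cluster its share was 72.7% in K, 50% in E, 42.9% in J and 41.4% in B, against 15.8% in A, 15.4% in D and 8% in F, but the lowest was G, outside these clusters, with 0 of 16 thinned cells and 1 of 24 before thinning. Phlda3 was detected in 6.09 ± 5.0001% of A, D and F and in 23.2 ± 4.42% of the others, lower again on 4 of 4 plates. It was most frequent in J (42.9%), C (33.3%) and H (33.3%), and 0 of 25 cells of F had a count, which allows a share of up to 12%. It was also in 0 of 13 thinned cells of I and 0 of 11 of K, both outside A, D and F, with 1 of 21 and 2 of 13 cells before thinning.

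Ccng1 was lower in A, D and F on 3 of 4 plates, at 23.9 ± 10.2% against 38.6 ± 15.2%, and was most frequent in J (64.3%), K (54.5%) and E (53.8%). Cdkn1b was spread over all clusters, from 18.8% in G to 57.1% in J, with 29.9 ± 8.87% in A, D and F against 35.03 ± 6.27% elsewhere. Mdm2 differed little between the groups of cells, at 21.7 ± 5.56% against 16.5 ± 6.29%, as did Rb1 at 16.1 ± 7.71% against 19.0 ± 10.7%. Rb1 was most frequent in K, at 45.5%, and least in B, at 3.45%.

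**Figure D5:**
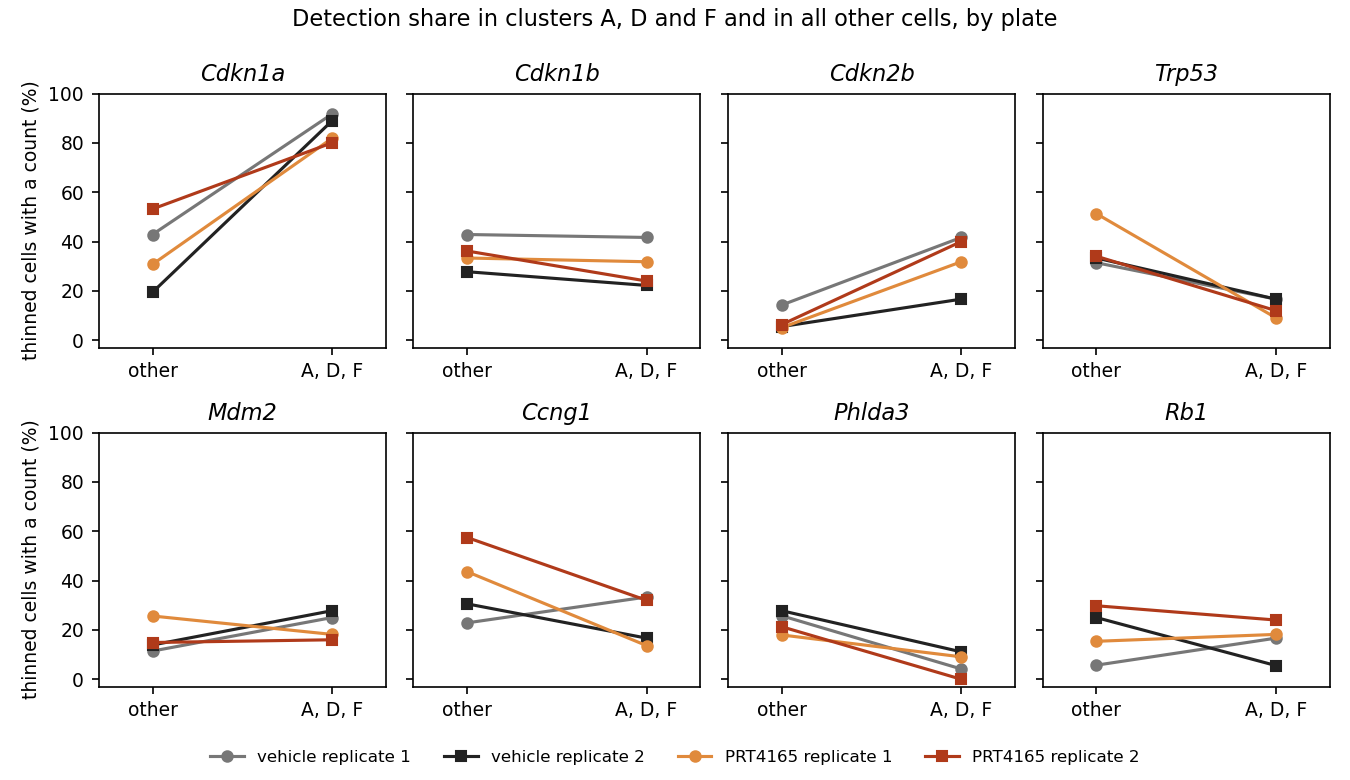
Share of thinned cells with a count (percent) in clusters A, D and F and in all other cells, 1 panel for each of 8 members and 1 line for each plate. Clusters A, D and F are higher on all 4 plates for Cdkn1a and Cdkn2b and lower for Cdkn1b, Trp53 and Phlda3, by the least for Cdkn1b.

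Outside A, D and F, the Mki67 classes differed less in the level of Cdkn1a, and its difference in detection changed sign. This comparison was added after these values had been seen. In thinned cells Cdkn1a was then detected in 15 of 37 positive (40.5%) and 44 of 120 negative cells (36.7%). The mean difference was 7.24 ± 12.7 percentage points, against -10.9 over all clusters, and was positive on 3 of 4 plates (exact permutation p = 0.375). The log2 fold change of Cdkn1a went from -1.50 to -0.63 (edgeR adjusted p = 0.988). Cdkn2b was then detected in 1 of 37 positive and 11 of 120 negative cells (log2 fold change -3.86, edgeR adjusted p = 0.902). Phlda3 was still detected more often in the positive class on 4 of 4 plates, by 12.2 ± 6.52 percentage points (exact permutation p = 0.125), and Ccng1 on 3 of 4, by 16.5 ± 13.7 (p = 0.250 by the same permutation test).

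Which members were seen in the same cells was counted over the 28 pairs of the 8 members other than Cdkn1c. In 6 pairs more of the 246 thinned cells held both genes than the product of their shares within plates on 4 of 4 plates, and in 3 pairs none of the plates was above it. In these cells, Cdkn1a and Cdkn2b were detected together in 38 cells, against 24.1 from the product, and above it on 4 of 4 plates. Cdkn1a was detected together with Cdkn1b in 54 cells, against 45.9, also above on 4 of 4 plates, although Cdkn1b was detected less often than elsewhere in A, D and F. In contrast, Cdkn1a was seen with Trp53 in 29 cells, against 38.5, and with Phlda3 in 17 cells, against 22.1, below the product on all 4 plates in both pairs. Trp53 and Phlda3 were seen together in 17 cells, against 11.8, above on 4 of 4 plates. The other pairs above on 4 of 4 were Cdkn1b with Ccng1 (32 cells, against 28.1), Cdkn2b with Mdm2 (10, against 7.52) and Ccng1 with Phlda3 (16, against 13.6), and the third pair with none above was Phlda3 with Rb1 (6, against 7.49). These are counts over cells that share plates and clusters, and no test was made. The share of all gene pairs above or below the product on every plate was not counted. Whether 6 and 3 of 28 pairs are many or few therefore cannot be told.

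The genes most like each member across the 274 cells were found by Pearson's r of log2(CPM + 1) after centring on the plate, over 6226 genes, for the 7 members detected in at least 20% of cells. Cdkn1a stood out, with r = 0.61 to Ly6g6c, 0.61 to Rab25 and 0.59 to Bbox1, against a median r of 0.04 over all genes. Of these, Ly6g6c also led clusters D and F. For the other members the highest r was between 0.27 and 0.38. Trp53 was nearest to Dtymk (0.38), the thymidylate kinase gene, then Itgb1 and Hat1, and Phlda3 to P3h2, Lamb3 and Col17a1 (0.31 each), of which Lamb3 and Col17a1 encode basement membrane and hemidesmosome proteins. Mdm2 was nearest to Pwp1 (0.34), Crebbp and Thap4, Cdkn1b to Hspa2 (0.31), Erich1 and Phrf1, Rb1 to Rbm25 (0.27), Sf3a1 and Dnmt1, and Ccng1 to Nop58 (0.27), Grb2 and Trap1. The cells share plates and depth, so these are descriptions.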

How the data were processed

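Single-cell libraries from 289 tomato-positive cells on 4 plates were analysed. The authors mapped reads with Salmon 0.13.1 to the mouse transcriptome (mm10, GRCm38 per the labels) and deposited estimated counts per gene and cell, not scaled; 18.3% of the values above 0 were not whole. Gene positions are GENCODE annotations of GRCm38. The 9 genes, the lists and the tests were chosen with earlier results of these data known, and the lists were written by hand.

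Cells were kept with at least 1000 genes and at most 50% mitochondrial counts, as in the study, which removed 15 cells, all by the second limit. Cells had been sorted 1 to a well and no doublets were called. Counts were summed over the cells of a plate, or of a plate and Mki67 class with plate as a block, rounded, filtered with filterByExpr, scaled by TMM and tested with edgeR 4.0.16 under R 4.3.3 (quasi-likelihood, Benjamini-Hochberg over all genes tested, threshold 0.05), and with DESeq2 1.42.0 on the same filtered genes as an alternative. The scripts were tested on simulated counts. The standard error is the log2 fold change divided by the square root of F. Detection shares were taken after thinning to 50000 non-mitochondrial counts, which left out 28 shallower cells (11, 1, 11 and 5 on vehicle replicates 1 and 2 and PRT4165 replicates 1 and 2), with Wilson 95% intervals and exact permutation tests over plates. Without molecular identifiers in the reads, the intervals and the limits for a count of 0 (3 counts) cover counting error only. Cells were clustered on 2000 variable genes without the 9 members, 15 components and 15 neighbours with the Leiden algorithm at resolution 1.0.

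Named were the 9 genes, Mki67, and from each list the genes past the threshold (at most 5 in each direction) or, with none, the 2 of smallest unadjusted p in each direction. The replicate number is a batch tag of the labels and was taken to pair the plates, although deviations of same-numbered plates from their group means correlated by only 0.0435.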

Additional observations from a re-analysis of the deposited data

Results flagged for a closer look

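Ccng1 and Rb1 moved in opposite directions between Mki67-positive and Mki67-negative cells in the treatments. Both vehicle plates had less Ccng1 in positive cells (10.7 against 33.5 CPM and 55.8 against 85.4 CPM) and both PRT4165 plates had more (126 against 43.8 CPM and 205 against 191.99 CPM). The difference was 1.92 on the log2 scale, and the interaction term did not pass (SE 1.25, unadjusted p = 0.155, edgeR adjusted p = 1). Rb1 had 10.7 against 11.8 CPM and 4.74 against 20.5 CPM on the vehicle plates and 78.6 against 30.7 CPM and 50.4 against 26.4 CPM on the PRT4165 plates, a difference of 2.29 (SE 1.74, unadjusted p = 0.218, edgeR adjusted p = 1). In PRT4165, 1 cell gave 77.8% of the Ccng1 counts of positive cells on replicate 1, and 1 cell gave 86.7% of those of Rb1 on replicate 2. The order of the classes on that plate thus rested on 1 cell for each gene, and with it the pattern. The share of all genes with such a pattern was not counted.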

How the results depend on the processing

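No member was called under any of the 10 alternatives for PRT4165 or the 12 for the Mki67 classes. For PRT4165, edgeR called 0 genes under every alternative, the replicate block included (0 genes, 498 before adjustment, against 630 without the block), and DESeq2 called 104 higher and 70 lower. DESeq2 was first run on all genes with a count, where it called 1.45% of them, and was then limited to the genes edgeR tested, so that the test alone differed. Of 80 log2 fold changes of 8 members, 5 turned: with stricter cell filters Cdkn1a was 0.0297 and Mdm2 0.0923, and leaving out 1 plate at a time gave ranges of -0.95 to 0.295 for Cdkn1b, -0.0294 to 0.62 for Trp53 and -0.18 to 1.24 for Cdkn2b. Members with plates that did not overlap in detection went from 2 to 5 without thinning and to 4 when thinned to 20000 counts. At 20000 counts the differences of Cdkn2b and Mdm2 were 0.79 and -2.11 percentage points, and with at least 5 counts that of Mdm2 was -1.15. Without 1 plate at a time the detection differences ran from -10.007 to 6.44 for Cdkn1b, -9.02 to 7.15 for Cdkn2b, -6.87 to 13.2 for Cdkn1a, -0.21 to 9.46 for Trp53 and -2.46 to 5.22 for Mdm2. The cause was not tested.

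Between the Mki67 classes, the 22 genes called higher and 11 called lower became 41 and 25 without a filter, 32 and 18 with at least 10 counts of Mki67, 31 and 32 with classes from the cycle list, 22 and 6 with thinned cells, 44 and 21 without the plate block, 251 and 602 by DESeq2 (5.96% of genes when run on all genes with a count) and 8 and 0 without clusters A, D and F. Without 1 plate, 0 to 24 were called higher and 0 to 19 lower. Log2 fold changes that turned were Rb1 at -0.00716 without a filter, Rb1 at -0.14 and Phlda3 at -0.0796 with the cycle list, Cdkn1b at 0.53 and Phlda3 at -0.0790 with thinned cells, Cdkn1b at 0.0348 and Ccng1 at 0.17 without the plate block, and Cdkn1b at 0.0204 without clusters A, D and F. Without 1 plate they ran from -0.90 to 0.64 for Cdkn1b, -0.71 to 0.32 for Ccng1, -0.26 to 0.92 for Phlda3 and -0.42 to 0.70 for Rb1. Cdkn1a stayed negative throughout, with adjusted p from 0.157 to 0.988. In detection, Cdkn1a was no longer lower on every plate without thinning (0 members) or without clusters A, D and F (0 members, difference 7.24), where 1 member was higher on every plate. Ccng1 was no longer higher on every plate without thinning, while Phlda3, Mdm2 and Rb1 were. Without 1 plate, 1 to 2 members were lower and 2 to 4 higher on every remaining plate. The shares of all genes under these settings were not counted. Mki67-positive cells numbered 6 on vehicle replicate 1, which limits what any plate can show.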
